A study of Sus scrofa with 15 samples.

Results

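The genes described here were the bacterial peptidoglycan receptors NOD1 and NOD2, their shared adaptor kinase RIPK2, and NLRX1 of the same receptor family. With them were the inflammasome genes NLRP3, NLRP1, PYCARD, CASP1 and GSDMD, all in the liver of piglets injected with lipopolysaccharide (LPS). They were chosen by name, as genes of a pathway, and found in the gene count table by matching each symbol to its pig Ensembl identifier. Of the 9 genes, 8 had an identifier in the table, which holds 31908 genes in all. No identifier was paired with the symbol NLRP1, so it has no value here. All 8 passed the filter on low counts, as did 12774 genes altogether.

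Liver RNA came from male piglets of the Duroc x Large White x Landrace cross. The CON group was injected with sterile saline, and the LPS group received LPS intraperitoneally at 80 μg/kg, with the liver taken 4 h after injection in both groups. The libraries were polyadenylated, fragmented RNA saved as the input of an m6A immunoprecipitation, with 3 input libraries in each group, and the immunoprecipitated libraries were not analysed here. CON replicates 1 and 2 are each listed under 2 GEO entries but have 1 column of counts each, and each was used as 1 library. The treatment is a single dose of LPS rather than an infection, and whole liver was used. The labels do not say that each library is a different piglet, so p-values measure only the spread between these libraries, which may be technical.

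NOD1 and NOD2 are cytosolic sensors of fragments of bacterial cell wall. NOD1 binds peptides that carry diaminopimelic acid and NOD2 binds muramyl dipeptide, and both recruit RIPK2, whose ubiquitin chains bring in the kinases that switch on NF-κB. The inflammasome is a separate assembly, in which a sensor such as NLRP3 or NLRP1 gathers the adaptor PYCARD (also called ASC), which in turn activates the protease CASP1. CASP1 matures the cytokines IL-1β and IL-18 and cuts GSDMD, whose freed end forms pores in the cell membrane. LPS is a ligand of TLR4 and is not the cell wall fragment that NOD1 or NOD2 binds. In liver, the resident macrophages, the Kupffer cells, are known for high inflammasome activity, and hepatocytes also carry NOD1.

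Total counts ran from 4348478 to 19967417 per library, and the 8 genes together received from 612 to 2000 counts. LPS replicate 3 was the deepest library and had the lowest TMM normalisation factor, 0.735. LPS replicate 2 was the LPS library most like the CON group. Its gene levels over the tested genes were taken as log2(CPM + 0.5), where CPM are counts scaled to library size by the TMM method. They correlated at a mean Pearson r of 0.942 with the CON libraries and of 0.886 with the other LPS libraries. LPS replicates 1 and 3 correlated with the CON libraries at 0.882 and 0.863, and with the other LPS libraries at 0.911 and 0.883. LPS replicate 3 was thus as far from its own group. These values are a description across genes, which are not replicates. The liver label was checked with 13 hepatocyte markers, all of which passed the filter. Their summed level was 63193 to 79244 CPM in the CON group and 41640 to 78589 CPM in the LPS group. The largest parts were ALB, APOA1 and TF, with CON means of 26643, 18144 and 14422 CPM, while SERPINA1 had a CON mean of only 2.72 CPM.

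No gene of the set was called different between the groups. A gene was called when its edgeR adjusted p was under 0.05 and its fold change over 1.5. Over all tested genes edgeR called 7 higher in the LPS group, 0.0548% of them, and none lower, 0%. At an unadjusted p under 0.05 the share of all genes was 6.18% higher and 6.33% lower, and of the 8 genes here none was higher and 1, CASP1, was lower. With 3 libraries against 3, an exact two-sided permutation test of 1 gene cannot go below p = 0.1. All 3 LPS libraries lay above all CON libraries for 6.52% of tested genes and below them for 9.8%. Among the 8 genes, none had separate groups with LPS above, and 2, CASP1 and NLRX1, had all LPS libraries below. NOD1, NOD2 and RIPK2 lay above 0 on the log2 fold change scale and the other 5 genes below it, with a median of -0.25 against 0.01 over all tested genes.

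**Figure D1:**
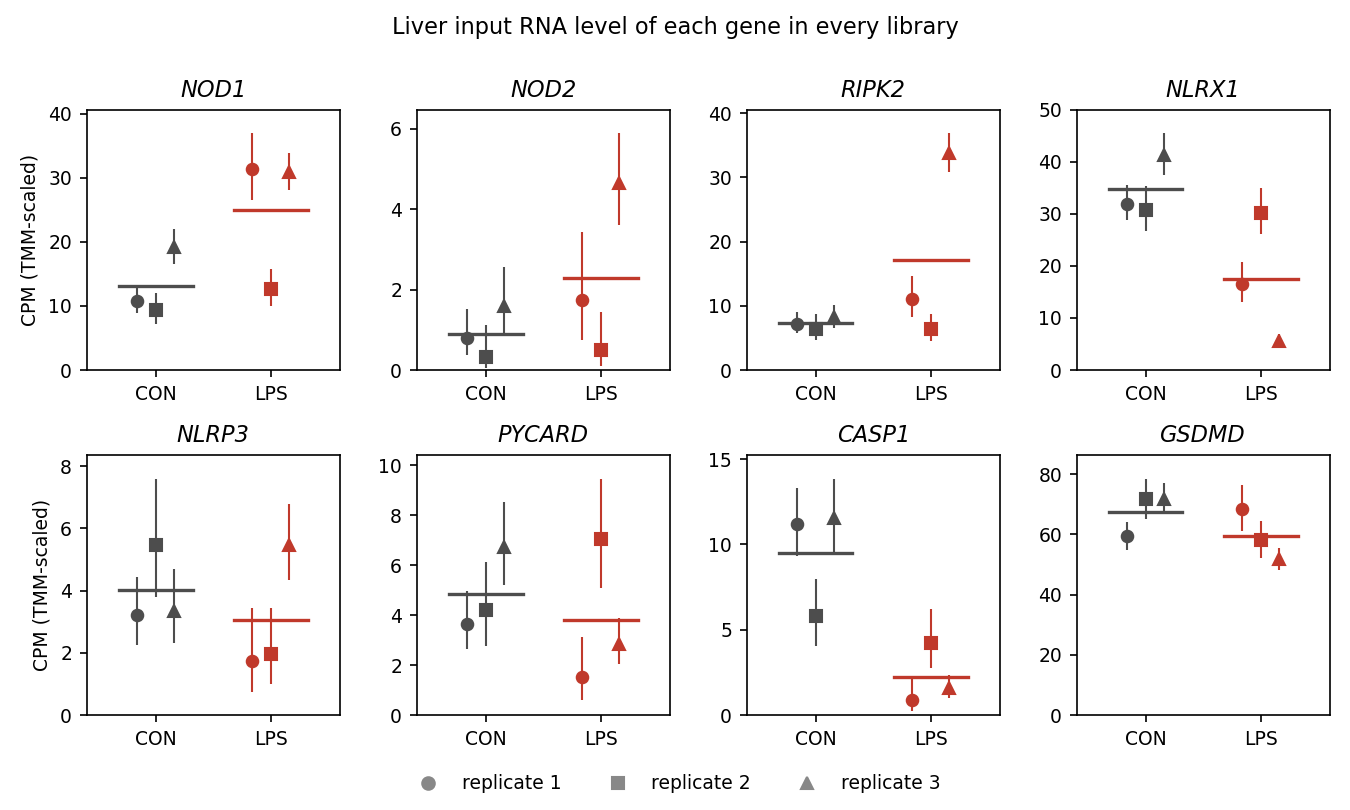
Level of each gene in the 3 CON and 3 LPS libraries, in TMM-scaled CPM on linear axes that start at 0. Symbols mark the replicate, vertical lines the 95% interval from counting error alone and horizontal lines the group mean. CASP1 and NLRX1 are the 2 genes whose LPS libraries all lie below the CON libraries, NLRX1 by a margin well inside the counting intervals.

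The receptor arm came first. Levels of NOD1, NOD2 and RIPK2 averaged higher in the LPS group, each with overlapping groups and none past the test. For all 3 genes LPS replicate 2 lay within or close to the CON range, and the distance between the group means came from LPS replicates 1 and 3 for NOD1 and largely from LPS replicate 3 for NOD2 and RIPK2. In bulk liver RNA, fewer or more cells of a type and less or more RNA per cell cannot be told apart, for these genes and for those that follow.

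NOD1 (ENSSSCG00000016678, chr18:42432050-42512266, plus strand) was at 10.7, 9.37 and 19.2 CPM in CON replicates 1 to 3 and at 31.4, 12.6 and 30.9 CPM in LPS replicates 1 to 3. LPS replicate 2 fell below CON replicate 3, so the groups overlapped. The log2 fold change of the LPS group over the CON group was 0.93 (SE 0.44), with a 95% interval of -0.06 to 1.91 and an edgeR adjusted p of 0.430. An unnamed gene on the opposite strand shares exon sequence with NOD1. It had 0 to 22 counts per library, against 60 to 452 for NOD1, and the sources used here do not say whether counting used strand.

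RIPK2 (ENSSSCG00000024096, chr4:47027092-47074725, minus strand), the kinase on which both receptors depend, was at 7.24, 6.41 and 8.21 CPM in the CON group. In the LPS group it was at 11.12, 6.38 and 33.7 CPM. The CON libraries lay close together, LPS replicate 3 was far above every other library, and LPS replicate 2 was level with the lowest CON library. A log2 fold change of 1.25 (SE 0.56) resulted, with a 95% interval of -0.0024 to 2.49 and an edgeR adjusted p of 0.400. Without LPS replicate 3 it was 0.27, with an edgeR adjusted p of 0.843.

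NOD2 (ENSSSCG00000038073, chr6:34130938-34177534, minus strand) was the least abundant gene of the set. It had 9, 2 and 16 counts in the CON libraries, or 0.804, 0.312 and 1.58 CPM, and 8, 3 and 68 counts in the LPS libraries, or 1.74, 0.491 and 4.64 CPM. Only LPS replicates 1 and 3 were above all CON libraries, the former by a margin inside its counting interval of 0.753 to 3.44 CPM. The log2 fold change was 1.37 (SE 0.81), with a 95% interval of -0.43 to 3.17 and an edgeR adjusted p of 0.522. Without LPS replicate 3 NOD2 no longer passed the filter.

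NLRX1 (ENSSSCG00000044952, chr9:46384375-46400750, plus strand) is a member of the same receptor family that sits at mitochondria and is known as a brake on innate signaling rather than as an inflammasome sensor. It was at 31.995, 30.8 and 41.3 CPM in the CON group and at 16.6, 30.3 and 5.60 CPM in the LPS group. All LPS libraries were below all CON libraries, but LPS replicate 2 was so by a hair, since its counting interval of 26.1 to 35.0 CPM covered CON replicates 1 and 2. LPS replicate 3, highest for RIPK2 and NOD2, was lowest for NLRX1. On the log2 scale the difference was -1.002 (SE 0.52), with a 95% interval of -2.16 to 0.16 and an edgeR adjusted p of 0.470.

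On the inflammasome arm CASP1 stood lowest, while the sensor NLRP3, the adaptor PYCARD and the pore-forming GSDMD had log2 fold changes between -0.35 and -0.19 and overlapping groups. CASP1 (ENSSSCG00000028711, chr9:35186420-35200328, minus strand) had 125, 37 and 117 counts in the CON libraries, which is 11.2, 5.78 and 11.6 CPM. It had 4, 26 and 23 counts in the LPS libraries, which is 0.872, 4.25 and 1.57 CPM. Every LPS library was below every CON library, with the narrowest gap between CON replicate 2 and LPS replicate 2, whose counting intervals of 4.07 to 7.97 and 2.78 to 6.23 CPM overlapped.

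The CASP1 mean was 9.51 ± 3.23 CPM (SD, n = 3) in the CON group and 2.23 ± 1.79 CPM (SD, n = 3) in the LPS group. This is a log2 fold change of -2.09 (SE 0.57), a 4.27-fold lower level, with a 95% interval of -3.37 to -0.82. It ranked 64 from the lowest of the 12774 tested genes. The edgeR adjusted p was 0.218, so CASP1 was not called, and its unadjusted p in that fit across all genes was 0.00449. DESeq2 called it lower, at -2.06 on the log2 scale with a DESeq2 adjusted p of 0.0278. By DESeq2, 1.91% of 14372 genes were called higher and 0.995% lower, and CASP1 was the only gene of the set among them. It was called as well by edgeR with no filter on low counts, where the adjusted p was 0.00217 and 2.28% of 23529 genes were called higher and 1.48% lower.

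NLRP3 (ENSSSCG00000013940, chr2:56892242-56977234, minus strand), which senses potassium efflux and other signs of membrane damage, was at 3.22, 5.47 and 3.36 CPM in the CON group and at 1.74, 1.96 and 5.46 CPM in the LPS group. LPS replicates 1 and 2 were below all CON libraries, and LPS replicate 3 was level with the highest. The log2 fold change was -0.32 (SE 0.54), with a 95% interval of -1.52 to 0.88 and an edgeR adjusted p of 0.837. Without LPS replicate 3 it was -1.07, with an edgeR adjusted p of 0.460.

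PYCARD (ENSSSCG00000040811, chr3:17306179-17307512, plus strand) was at 3.66, 4.22 and 6.72 CPM in the CON group and at 1.53, 7.03 and 2.87 CPM in the LPS group. Here LPS replicate 2 was the highest of all 6 libraries and the other LPS libraries were the lowest. Its log2 fold change was -0.35 (SE 0.56), with a 95% interval of -1.60 to 0.90 and an edgeR adjusted p of 0.828.

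GSDMD (ENSSSCG00000006955, chr4:995763-1003058, minus strand) was at 59.3, 71.7 and 71.8 CPM in the CON group and at 68.5, 58.2 and 51.8 CPM in the LPS group. It was the best counted gene of the set, with 314 to 759 counts per library, and had the smallest spread. Its log2 fold change of -0.19 (SE 0.28) had a 95% interval of -0.82 to 0.45 and an edgeR adjusted p of 0.824.

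**Figure D2:**
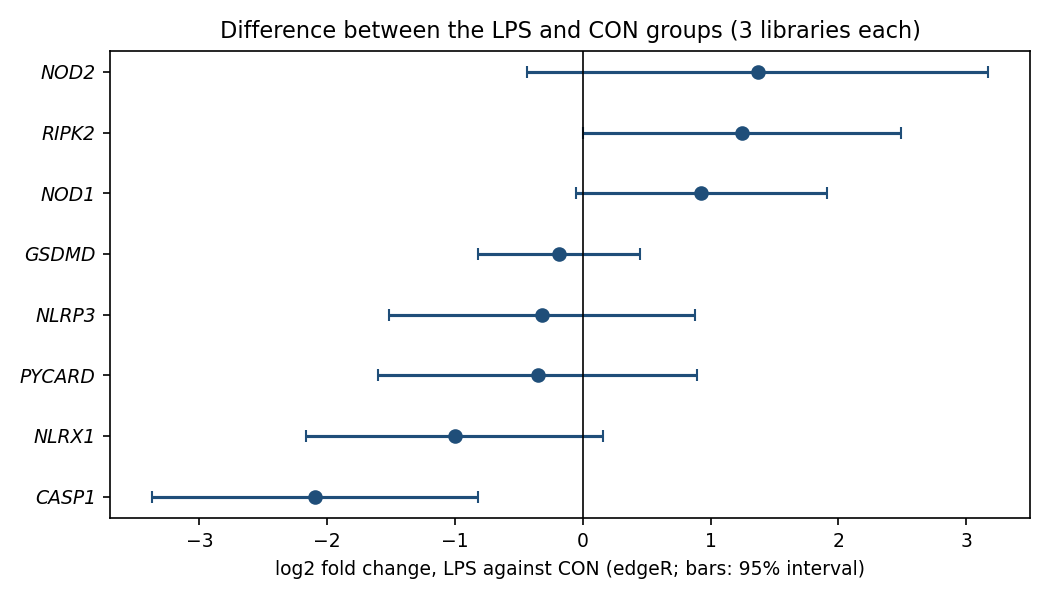
Log2 fold change of the LPS group over the CON group for each gene (points) with its 95% interval from edgeR (bars), 3 libraries a group. The CASP1 interval, -3.37 to -0.82, lies below 0, the RIPK2 interval starts at -0.0024, and the other 6 intervals cross 0.

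Leaving out LPS replicate 2 moved CASP1, NLRX1, RIPK2, NOD1, NOD2 and PYCARD away from 0 and moved NLRP3 and GSDMD closer to it. Without this library edgeR called 3.76% of 13632 genes higher and 3.45% lower, and of the set 1 gene lower and none higher. That gene was CASP1, at -2.86 on the log2 scale with an edgeR adjusted p of 0.0131. NLRX1 at -1.69, with an edgeR adjusted p of 0.0535, and RIPK2 at 1.64, with one of 0.0542, were not called in the same fit. NOD1 was at 1.25 with an edgeR adjusted p of 0.0766, and NOD2 at 1.83 with one of 0.134. PYCARD stood at -1.08, NLRP3 at -0.06 and GSDMD at -0.17. These values stand beside those of all 6 libraries and do not replace them. Because LPS replicate 2 was the LPS library most like the CON group, leaving it out widens many group differences by that choice. Calls made without it, here and below, are a description and not support for a difference.

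**Figure D3:**
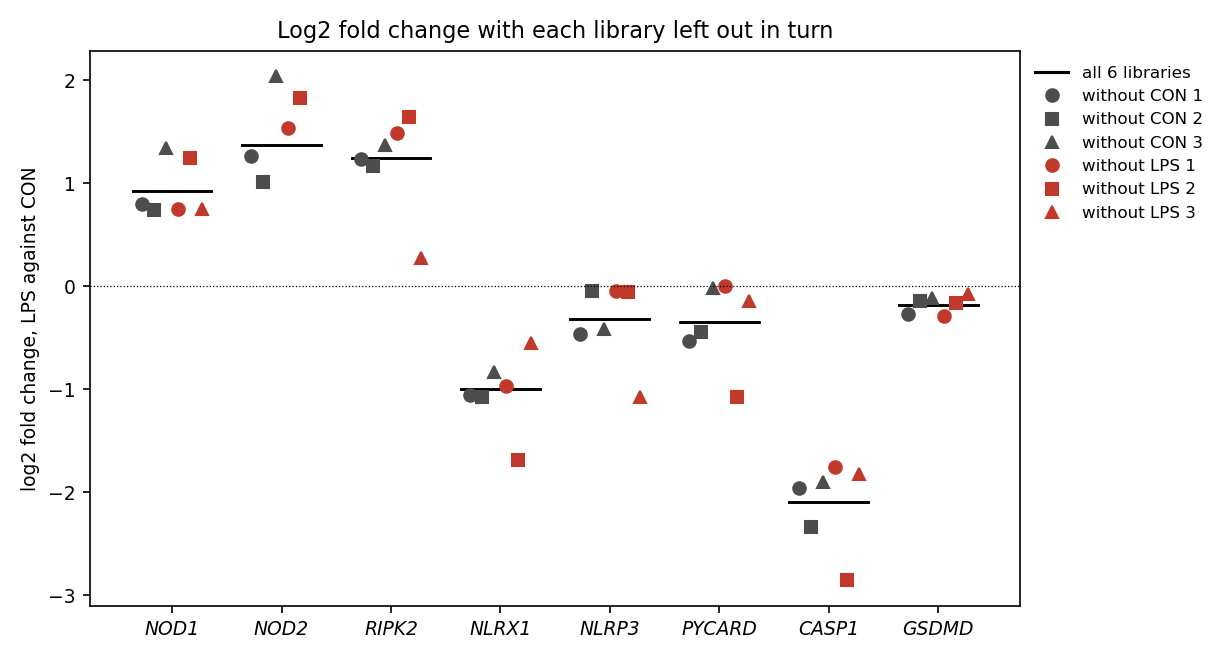
Log2 fold change of each gene with all 6 libraries (horizontal line) and with each library left out in turn (symbols, colour for the group of the library left out). Without LPS replicate 3, RIPK2 drops to 0.27, and without LPS replicate 2, CASP1 goes to -2.86 and NLRX1 to -1.69. No symbol of any gene lies across 0 from its line, but some of PYCARD and NLRP3 lie almost at 0.

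Genes around the receptors were described from lists of their roles. For delivery of cell wall fragments to NOD1 and NOD2, 8 transporters and enzymes were listed and 7 tested, of which 1 was higher and 3 lower at an unadjusted p under 0.05 in the edgeR fit, none called, with a median log2 fold change of -0.44. SLC15A3, an endolysosomal transporter of muramyl dipeptide, was at 27.4, 23.1 and 30.7 CPM in the CON group and at 46.9, 39.4 and 56.2 CPM in the LPS group. All LPS libraries of SLC15A3 were above all CON libraries, LPS replicate 2 included, at 0.81 (SE 0.29) on the log2 scale with an edgeR adjusted p of 0.312. SLC15A2, a peptide transporter of the cell surface, had a log2 fold change of -1.61 and the lysosomal SLC46A3 one of -1.65, with edgeR adjusted p of 0.329 and 0.367. The groups overlapped for SLC15A2 and SLC46A3, since LPS replicate 2 was above CON replicate 3. The values were 16.4 against 13.0 CPM for SLC15A2 and 41.6 against 34.6 CPM for SLC46A3. Both were called lower without LPS replicate 2, at -2.64 and -2.83, with edgeR adjusted p of 0.0110 and 0.00981. TASL, the adaptor bound by SLC15A4, was at -1.26, with all LPS libraries below all CON libraries and an edgeR adjusted p of 0.368.

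The RIPK2 signalosome, the ubiquitin ligases and kinases that carry the signal to NF-κB, had 20 of 21 listed genes tested. None passed an unadjusted p of 0.05, 13 lay above 0 and 7 below, and the median was 0.16. IKBKG, the regulatory subunit of the IκB kinase and by the naming rule the list's most abundant gene, was at -0.28 with an edgeR adjusted p of 0.764. BIRC3, a ubiquitin ligase that acts on RIPK2, was picked after its values were seen. It was at 65.9, 40.8 and 34.7 CPM in the CON group and at 71.3, 26.2 and 389 CPM in the LPS group. As for RIPK2, 1 library, LPS replicate 3, carried the log2 fold change of 1.79, whose edgeR adjusted p was 0.423, and without LPS replicate 2 it was 2.30 with an edgeR adjusted p of 0.0493. Of 8 tested brakes on this signal none passed an unadjusted p of 0.05 (median 0.06), and the linear-ubiquitin protease OTULIN was at -0.15.

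Few other receptors of the family could be measured. Of 20 listed, 10 had an identifier and 3 passed the filter, none at an unadjusted p under 0.05, and NLRC5, an activator of MHC class I genes, was the most abundant at 81.9 ± 15.5 CPM (SD, n = 3) in the CON group and 59.0 ± 24.5 CPM (SD, n = 3) in the LPS group. Another 5, NLRP4, NLRP5, NLRP8, NLRP9 and NLRP13, were at 0 counts in every library.

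Upstream of the inflammasome, 15 of 18 listed licensing and trigger genes were tested, with 1 higher at an unadjusted p under 0.05, none called and a median of -0.11. The gene was HSP90AA1, a chaperone that keeps NLRP3 folded, at 1006, 593 and 1052 CPM in the CON group and 2058, 818 and 3242 CPM in the LPS group. Its log2 fold change was 1.21, with an edgeR adjusted p of 0.360 with all libraries and of 0.0399 without LPS replicate 2. Of 5 tested brakes on the inflammasome 1 was lower at an unadjusted p under 0.05. It was MARCHF7, a ubiquitin ligase that marks NLRP3 for degradation, at 19.8, 12.5 and 12.0 CPM in the CON group and 6.76, 9.49 and 7.99 CPM in the LPS group. All its LPS libraries were below all CON libraries, at -0.87 on the log2 scale with an edgeR adjusted p of 0.362.

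Downstream, 3 of 14 listed genes of pyroptotic output were tested and none passed an unadjusted p of 0.05. IL18, a cytokine matured by CASP1 and named after its values were seen, was at 6.43, 7.66 and 4.85 CPM in the CON group and at 4.80, 4.58 and 9.56 CPM in the LPS group, a log2 fold change of 0.03. GSDMB, a gasdermin also named after its values were seen, was at -1.15 with an edgeR adjusted p of 0.562, and was called lower without LPS replicate 2 at -2.77 with one of 0.0267. No identifier was paired with the symbol IL1B.

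**Figure D4:**
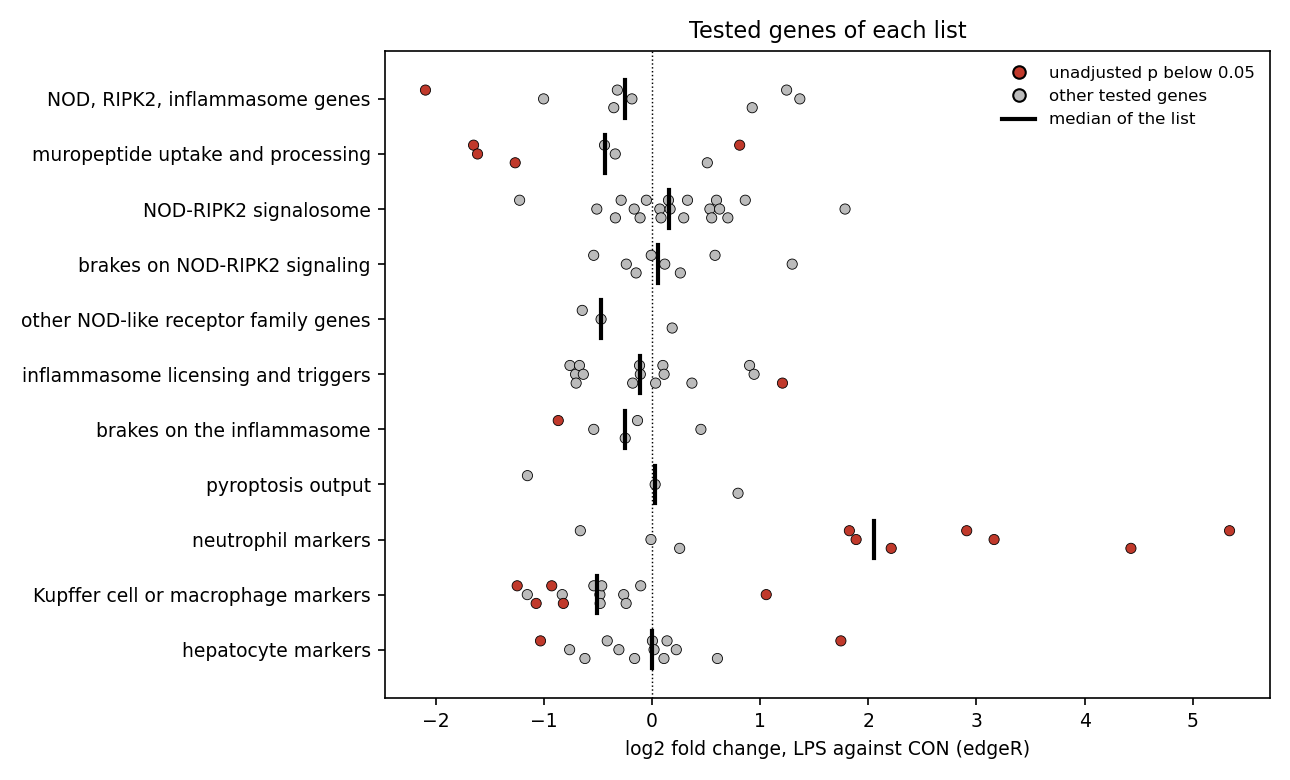
Log2 fold change of every tested gene in each list (points), red where the unadjusted p of the edgeR fit was under 0.05, with the median of the list as a black bar. The NOD, RIPK2 and inflammasome genes have a median of -0.25 with CASP1 farthest left, and the neutrophil markers have a median of 2.05.

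Markers of other cell types were read beside these genes. Of 10 tested neutrophil markers 7 were higher at an unadjusted p under 0.05 in the edgeR fit and 1, S100A8, was called, at 5.34 on the log2 scale (edgeR adjusted p = 0.0371). Their summed level was 38.3 to 64.5 CPM in the CON group and 121 to 359 CPM in the LPS group, and every LPS library, LPS replicate 2 included, was above the CON range. Of 14 tested Kupffer cell or macrophage markers 13 lay below 0 (median -0.51). MRC1, TIMD4, VSIG4 and MERTK were lower and CD14 was higher at an unadjusted p under 0.05, none was called, and LYZ had 0 counts in every library. The summed macrophage level overlapped between the groups, at 2587 to 4144 CPM in the CON group and 2751 to 4243 CPM in the LPS group. CD14 was a large part of this sum, with a mean of 719 CPM in the CON group and 1496 CPM in the LPS group. Other large parts, C1QA, C1QB and C1QC, were at -0.48, -0.26 and -0.48 on the log2 scale. The 9 T or NK cell markers had a median of -0.20 with 1 lower at an unadjusted p under 0.05, and the 7 B or plasma cell markers one of -0.26 with none. The 8 endothelial markers had a median of -0.46 with 1 higher and 2 lower, the 11 cholangiocyte or stellate cell markers one of 0.21 with 3 higher, and the 13 hepatocyte markers one of 0.00 with 1 higher and 1 lower. The part of cell composition in the values of CASP1, NOD1 or any other gene of the set was not tested.

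Levels of the members were compared with one another per length, in CPM per kilobase of exon. In the CON group GSDMD was highest at 27.9 ± 2.95 (SD, n = 3), above 90.3% of all tested genes, followed by NLRX1 at 8.72 ± 1.45 and PYCARD at 6.42 ± 2.15. Then came RIPK2 at 3.16 ± 0.391, CASP1 at 2.84 ± 0.965 and NOD1 at 1.98 ± 0.805, all below the median of 3.43 over all tested genes. NLRP3 at 0.516 ± 0.162 and NOD2 at 0.170 ± 0.121 were lowest, and only 0.861% of tested genes were below NOD2. Ranges of CON libraries overlapped between the neighbours NLRX1 and PYCARD, RIPK2 and CASP1, and CASP1 and NOD1, so those pairs have no order beyond their spread. Every CON library of the effector GSDMD was above every CON library of the sensor, the adaptor and the protease of the same route. In the LPS group RIPK2 stood second by its mean, 7.41 ± 6.34 (SD, n = 3), an SD nearly as large as the mean, and CASP1 had 0.666 ± 0.533.

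**Figure D5:**
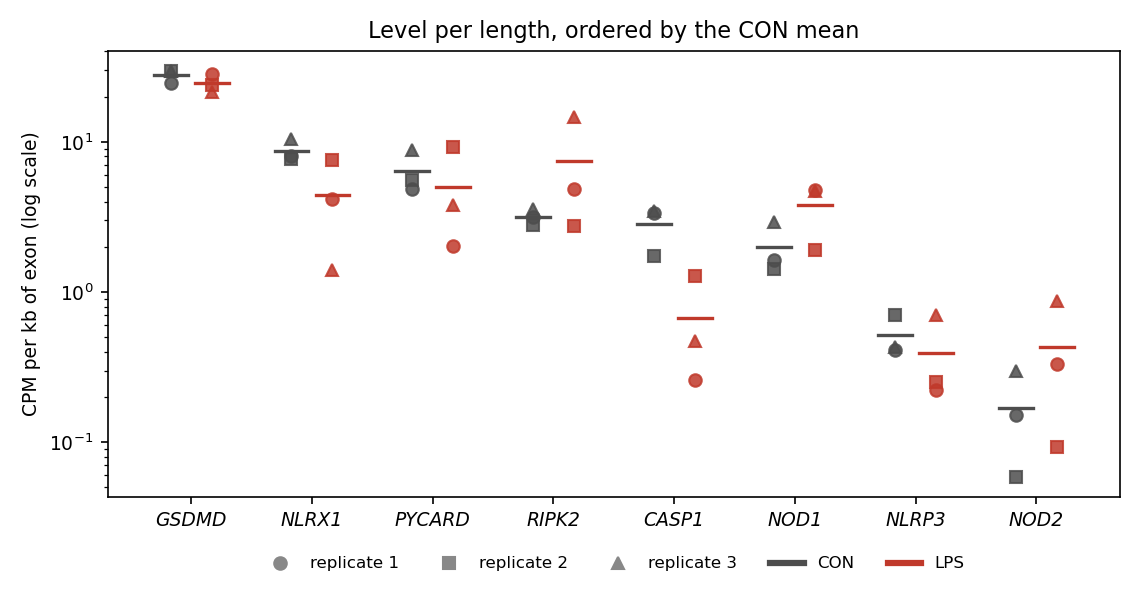
Level in CPM per kilobase of exon on a log axis, genes ordered by the CON mean, with 1 symbol per library and a bar for each group mean. GSDMD leads in both groups, NOD2 and NLRP3 are lowest in both, and all LPS libraries lie below all CON libraries for CASP1 and NLRX1.

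The genes that followed each member most closely were found from profiles of log2(CPM + 0.5) over the 6 libraries, each centred on its own mean, by their root mean square difference. Medians given here are over the tested genes with a symbol and a mean of at least 1 CPM. The genes named were picked as the smallest differences, so lying under the median was fixed by that choice. For NOD1 they were DDX49, EIF1AD and PDCD11, with DDX49 at a difference of 0.0952 against a median of 0.805. For RIPK2 they were ABL2, AGO2 and JAK1, with ABL2 at 0.0292 against a median of 0.906. ABL2 was at 6.08, 5.16 and 6.53 CPM in the CON group and at 8.94, 5.24 and 28.5 CPM in the LPS group, with the same single high library. NOD2 was nearest to ETV6, NOP56 and NOLC1. On the inflammasome arm CASP1 was nearest to LPGAT1, at 0.225, then ENTPD5 and SIGLEC1, and NLRP3 to MNT, GPRIN3 and DUSP6. Among the genes nearest to PYCARD were SLC26A2 and ARHGAP4. NLRX1 was nearest to GLDC, ATP7B and VIPR1, and GSDMD to ALDH3A2, WASHC1 and HPN. Between the members, NOD2 and RIPK2 differed least, by 0.325, followed by NOD1 and NOD2 at 0.419. With 6 libraries of unequal depth such likeness is a description of these libraries.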

How the data were processed

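RNA of piglet livers was polyadenylate-selected and fragmented, and input libraries were made with a directional kit. The deposited values are raw counts per gene for 6 libraries. The submitters' processing notes name cutadapt 1.9.3 and HISAT2. The sources used here name no counting program, strand setting or pig build, and the builds listed are those of chicken and human. Positions are those of the table: of 13830 symbols shared with Sscrofa11.1 RefSeq, 98.9% overlapped its span. Symbols were paired with 15029 identifiers. Exon lengths were taken from the deposited table.

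Counts were filtered (filterByExpr, minimum count 10), TMM-scaled and tested with the quasi-likelihood test of edgeR 4.0.16 in R 4.3.3, LPS against CON, with Benjamini-Hochberg adjustment over all tested genes. A gene was called at an adjusted p under 0.05 and a fold over 1.5. SE and 95% intervals came from the same fit, and counting intervals are exact Poisson limits, which cover counting error only. The edgeR, DESeq2 and limma-voom fits were run on simulated counts as a check of the code. No simulated library was made to resemble the other group, so that check does not bear on LPS replicate 2. Alternatives were RLE factors, total counts, DESeq2 1.42.0, limma-voom 3.58.1, a replicate block, no filter, at least 10 counts in every library, each library left out, no fold threshold and a fold of 2.

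The genes and lists were chosen with earlier results of these data known. Named were all members and, per pathway list, called genes, then up to 4 at an unadjusted p under 0.05, else the most abundant in CON. Abundance in this rule was in CPM, not scaled by length. For likeness, the 3 nearest genes with a mean of at least 1 CPM were named. Some genes that these rules name are not reported here.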

Additional observations from a re-analysis of the deposited data

How the results depend on the processing

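No gene of the set changed sign under any alternative run for it, 11 to 13 settings each. For PYCARD and NLRP3 the sign means little, since without LPS replicate 1 they were at -0.00055 and -0.049 on the log2 scale. CASP1 was called lower in 3 of its 12 settings, no filter, DESeq2 and without LPS replicate 2. Its log2 fold change ran from -2.86 to -1.76 over all 12, with adjusted p from 0.00217 to 0.688, and the other 7 genes were called in none. The count of members called lower was 1 with no filter and 1 by DESeq2, against 0 otherwise, and ranged from 0 to 1 when single libraries were left out. Members called higher stayed at 0.

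Over all genes, the 7 called higher became 11 with total counts, 536 with no filter, 0 with at least 10 counts in every library, 275 by DESeq2 and 4 by limma-voom. The 0 called lower became 1 with RLE factors, 1 with total counts, 349 with no filter, 143 by DESeq2 and 2 by limma-voom. With each library left out, 0 to 512 were called higher and 0 to 470 lower, both maxima without LPS replicate 2. The causes were not tested. Total-count scaling moved the median log2 fold change of all genes from 0.01 to -0.12.

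With a replicate block, 42 genes were called higher and 9 lower, and no member in either direction. The replicate numbers share no stated origin. Deviations from group means correlated between same-numbered libraries at r of -0.26, 0.22 and 0.03, and not every library correlated best with its own number, so the numbers were not taken to pair the libraries.

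Depth was lowest for NOD2, with 2 to 68 counts per library.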

Other observations

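Ratios of counts between 2 members of the same library do not depend on how libraries are scaled. Of the 28 pairs, 5 had all LPS libraries on one side of all CON libraries, or 17.9%. Over all pairs of the 12650 tested genes with a count in every library the share was 17.5%, so the number of such pairs does not set the members apart. Their values, picked after they were seen and with no test, are given as a description, and 4 of the 5 pairs share CASP1. RIPK2 had 0.648, 1.11 and 0.709 counts per CASP1 count in the CON group and 12.8, 1.5 and 21.5 in the LPS group. For NOD1 the ratio to CASP1 was 0.960, 1.62 and 1.66 in the CON group and 36, 2.96 and 19.7 in the LPS group. PYCARD per CASP1 count was 0.328, 0.730 and 0.581 in the CON group and lay closer together in the LPS group, at 1.75, 1.65 and 1.83. GSDMD per CASP1 count was 5.31, 12.4 and 6.21 in the CON group and 78.5, 13.7 and 33.0 in the LPS group. The remaining pair was RIPK2 over NLRP3, at 2.25, 1.17 and 2.44 in the CON group and 6.38, 3.25 and 6.18 in the LPS group. LPS replicate 1 had 4 CASP1 counts, so its ratios to CASP1 are imprecise.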
